A study of Mus musculus with 33 samples.

Results

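The interferon regulatory factors (IRFs) are a family of transcription factors, and 8 of their genes, Irf1, Irf2, Irf3, Irf4, Irf5, Irf7, Irf8 and Irf9, were followed here through 33 RNA sequencing libraries of mouse microglia. They were chosen by name as relatives of Irf8, with earlier results of these data known. They make up 8 of the 54146 genes counted and 8 of the 37362 with at least 1 count. All 8 passed the filter on low counts in each of the 10 comparisons made. The question was whether the relatives of Irf8 rise or fall when Irf8 is removed.

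IRFs share an amino-terminal DNA-binding domain that reads GAAA repeats, as found in interferon-stimulated response elements (ISREs). IRF3, IRF7 and IRF5 are held in the cytoplasm until kinases below nucleic acid sensors and Toll-like receptors activate them, and then switch on type I interferon genes. IRF9 joins STAT proteins below the interferon receptors to form the complex that turns on interferon-stimulated genes. IRF1 is itself induced by interferon and IRF2 competes with it for the same sites. IRF8 and IRF4 bind DNA weakly alone and act with partners such as PU.1 (the product of Spi1) or the BATF factors. IRF8 is required in microglia for their normal state, and in bone marrow it favours monocytes and dendritic cells over neutrophils.

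Microglia of C57BL/6 mice, all labelled female, were sorted by flow cytometry from each brain without enzymes, and the 33 libraries fell into 10 groups. Wild-type (WT) and Irf8 knockout (IRF8KO) mice were profiled at 3 months with 4 libraries each and at 9 months with 3 each. At 9 months 3 libraries each came from 5xFAD mice, which carry human transgenes with mutations of familial Alzheimer's disease, and from 5xFAD mice without Irf8 (5xFAD/IRF8KO). Mice without Batf3 (Batf3KO), a partner of IRF8 in dendritic cells, and the WT mice of the same experiment gave 3 libraries each at 3 months. The conditional knockout was profiled at 3 months in 3 libraries with a floxed Irf8 allele (genotype label IRF8flox, called flox here) and 4 with that allele and a tamoxifen-inducible Cre under the Cx3cr1 promoter (called Cre here). Tamoxifen was given on 5 consecutive days beginning around postnatal day 12, and cells positive for a Cre-dependent YFP reporter were sorted. The genotype label of the flox libraries names no Cre, so whether their cells were sorted on this reporter is unclear. Any difference in the sort cannot be told apart from the loss of Irf8 in Cre against flox. Cx3cr1 is active in other macrophages of the brain as well as in microglia. Whether flox mice were given tamoxifen is not stated in the sources used here. Nor is it stated which exons the IRF8KO allele lacks.

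The libraries held 605376 to 18357762 counts in genes, with the shallowest among WT at 9 months. The library labelled Cre replicate 1 had as much Irf8 as the flox libraries, against its label, so the conditional comparison is given with and without it. Summed over 10 markers, microglial transcripts took 6.37% to 6.53% of counts in WT at 9 months and 0.367% to 0.904% in IRF8KO of that age. In the IRF8KO experiment at 3 months the share was 1.19% to 2.2% in WT and 0.619% to 1.13% in IRF8KO. The other groups at 3 months had more, from 2.86% in a Cre library to 6.9% in WT of the Batf3KO experiment. Summed over 9 markers, neutrophil transcripts made up 0.839% to 5.37% of the counts of WT libraries in the IRF8KO experiment at 3 months, against 7.36% to 16.1% for IRF8KO. In WT of the Batf3KO experiment, also aged 3 months, they were at most 0.000458%, so the 2 WT groups of that age stand apart. At 9 months 6 of the 9 neutrophil markers had no count in WT, and all 9 together took 6.31% to 8.88% in IRF8KO and 7.93% to 13.9% in 5xFAD/IRF8KO. All 9 had counts in both groups. Transcripts of other cells moved at 9 months too. The 5 red blood cell markers took at most 0.00529% in WT and between 2.38% and 15.8% in IRF8KO, the 4 monocyte markers at most 0.000418% and between 0.554% and 1.49%, and the 4 oligodendrocyte markers at most 0.00801% and between 0.689% and 1.08%. In the IRF8KO experiment at 3 months, red blood cell markers already took 3.05% to 10.3% in WT, and 0.902% to 9.03% in IRF8KO. Oligodendrocyte markers took 0.523% to 6.24% in WT and 0.31% to 3.64% in IRF8KO there. Monocyte markers took 0.0434% to 0.25% in WT and 0.561% to 1.37% in IRF8KO of that age. The 5 border macrophage markers summed to 4.96 to 12.5 CPM in WT and 548 to 804 CPM in IRF8KO at 9 months, and to 28.6 to 106 CPM and 801 to 1270 CPM at 3 months. Sall1, a defining microglial factor, had no count in 5xFAD/IRF8KO. In these bulk samples fewer cells of a type and less RNA per cell cannot be told apart, and the part of other cell types in the differences below was not tested. Transcripts linked to the Y chromosome without Xist were found in 13 libraries labelled female and Xist alone in 16, at a minimum of 10 CPM (counts scaled to library size). Both were found in 3 libraries, 1 of IRF8KO at 9 months and 2 of 5xFAD/IRF8KO, and neither in 1. At 9 months all 3 WT libraries had Y-linked transcripts only, while 5xFAD had 1 such library and 2 with Xist only.

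Levels below are CPM after TMM scaling over all 33 libraries. Differences are log2 fold changes from edgeR's quasi-likelihood test fitted to the libraries of each comparison, with a standard error (SE) derived from its F statistic. A gene was called when its Benjamini-Hochberg adjusted p over all genes tested was under 0.05. Levels of different genes are compared only as CPM per kilobase of the longest coding transcript.

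Irf8 and Irf5 were the most abundant members per kilobase in WT microglia. In WT of the Batf3KO experiment Irf8 made up 39.1% and Irf5 39.1% of the CPM per kilobase summed over the 8 genes. In WT at 9 months the shares were 37.7% and 35.7%, and in WT of the IRF8KO experiment at 3 months 32.7% and 30.7%. Irf4 was the lowest member in all 10 groups, at 0.0556% to 0.607% of the sum.

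**Figure D1:**
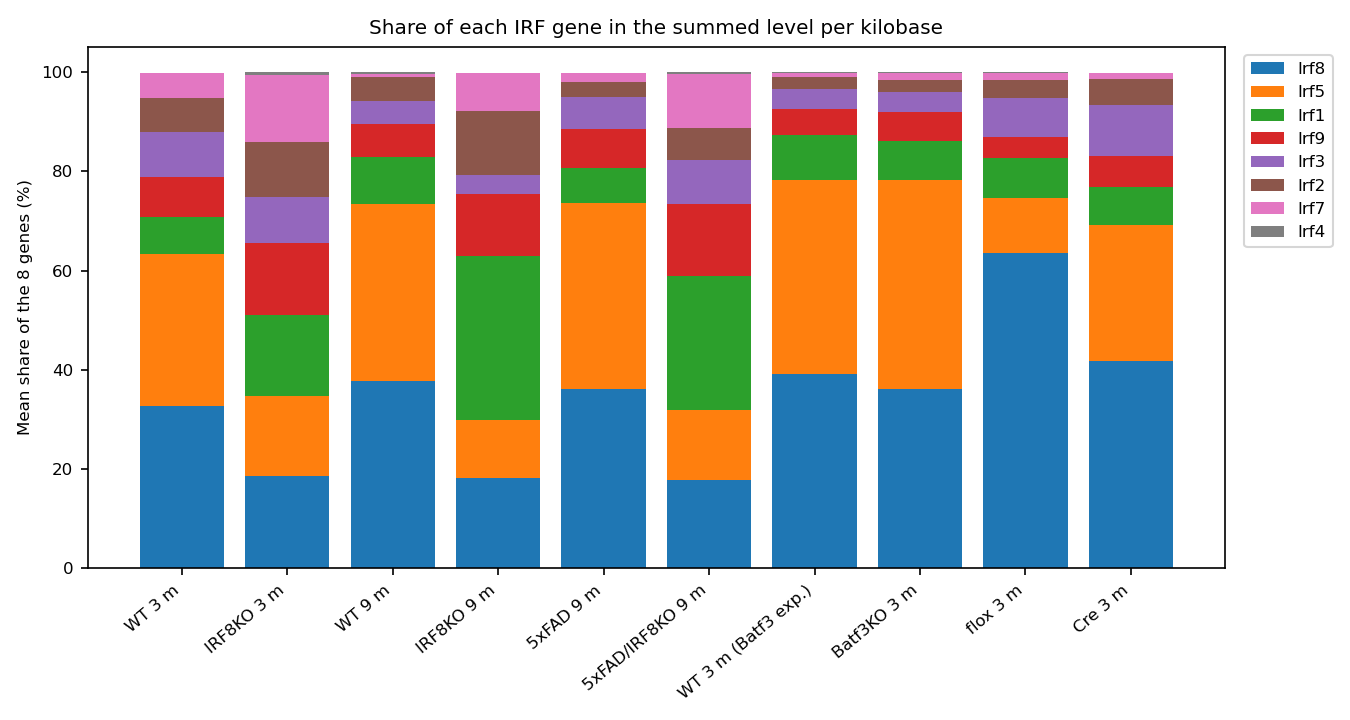
Mean share of each IRF gene in the CPM per kilobase summed over the 8 genes, as a percentage on the vertical axis, with 1 stacked bar per group of libraries. Irf8 and Irf5 fill most of the bar in the WT groups, while Irf1 has the tallest part in the bars of IRF8KO (33.1%) and 5xFAD/IRF8KO (27.1%) at 9 months.

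Without Irf8 this composition was different. At 9 months Irf8 held 18.1% and Irf5 11.8% of the sum in IRF8KO, and Irf1 held 33.1%. The sum itself was 559 ± 52.6 CPM per kilobase in WT and 139 ± 65.3 in IRF8KO at that age (SD, n = 3 each). The younger libraries had 283 ± 46.8 in WT and 230 ± 48 in IRF8KO (SD, n = 4 each). The larger share of Irf1 at 9 months thus went with a smaller sum, since the level of Irf1 itself was 114 ± 4.03 CPM in WT and 93.9 ± 38.8 CPM in IRF8KO. In flox libraries the pair was uneven, with 63.5% for Irf8 and 11.1% for Irf5. Counting over all annotated exons in place of the longest transcript put Irf5 ahead of Irf8 in 9 of the 10 groups, so the order of these genes depends on the length used.

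Irf8 (ENSMUSG00000041515.10) lies on the plus strand of chromosome 8 from 120736358 to 120756694 of GRCm38. The genes that the results turn on are Irf8 and Irf5, whose transcripts were both lower in germline knockouts at 9 months, and Irf1 serves as a relative that was not called in any comparison. The 250 bases before the first RefSeq start of each are shown in the plus strand, with matches to TTCNNNGAA, the palindrome bound by STAT dimers (GAS), in capitals.
Irf8, chr8:120736108-120736357: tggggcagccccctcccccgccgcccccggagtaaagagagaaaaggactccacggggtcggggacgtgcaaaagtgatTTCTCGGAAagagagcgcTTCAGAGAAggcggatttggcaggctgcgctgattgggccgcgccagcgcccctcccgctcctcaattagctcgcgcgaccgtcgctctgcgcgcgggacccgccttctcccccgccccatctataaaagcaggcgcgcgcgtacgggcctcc
Irf5, chr6:29526375-29526624: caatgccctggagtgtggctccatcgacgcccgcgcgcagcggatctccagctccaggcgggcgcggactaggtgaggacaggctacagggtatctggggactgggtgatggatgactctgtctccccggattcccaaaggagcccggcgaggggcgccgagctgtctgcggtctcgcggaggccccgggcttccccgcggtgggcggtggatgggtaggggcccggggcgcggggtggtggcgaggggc
Irf1, chr11:53769764-53770013: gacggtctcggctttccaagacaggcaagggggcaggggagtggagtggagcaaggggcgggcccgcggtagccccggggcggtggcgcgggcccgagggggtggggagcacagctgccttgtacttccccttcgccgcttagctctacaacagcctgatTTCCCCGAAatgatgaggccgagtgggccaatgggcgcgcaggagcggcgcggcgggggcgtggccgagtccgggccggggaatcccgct

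In the RefSeq promoter table for GRCm38.p6, the Irf8 window holds 2 GAS matches, TTCTCGGAA starting 171 bases and TTCAGAGAA starting 153 bases before the start. The Irf1 window holds 1, TTCCCCGAA, starting 90 bases before it. The Irf5 window holds no match to GAS, to the ISRE core (GAAA, 2 bases of any kind, GAAA) or to the composite element of PU.1 with IRF8 or IRF4 (EICE: GGAA, 2 bases of any kind, GAAA). A later RefSeq start is listed for Irf8 (window 120738389 to 120738638) and for Irf1 (window 53770223 to 53770472), and neither window holds any of these patterns. Among the other members only Irf2 had matches, 1 each to GAS, ISRE and EICE, of which the last 2 overlap. Of 32851 promoter windows of this length searched on both strands, 7.02% hold the GAS pattern, 2.98% the ISRE core and 2.3% the EICE. A match describes letters only, and its absence is limited to this window.

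Irf8 RNA was lower in the knockout libraries but not absent, and the counts cover the whole gene. At 3 months Irf8 was 313, 241, 242 and 244 CPM in the WT libraries and 97.1, 95.4, 172 and 127 CPM in IRF8KO. The 9-month level was 650, 602 and 543 CPM in WT libraries, against 126, 14.9 and 68.9 CPM in IRF8KO libraries. No IRF8KO library reached the lowest WT library of the same age. The difference was called at both ages, with 2.17-fold less Irf8 in IRF8KO at 3 months (log2 difference -1.12, SE 0.299, adjusted p 0.0415) and 8.2-fold less at 9 months (-3.04, SE 0.545, adjusted p 0.00152). At 3 months the call ended without any 1 of 6 of the 8 libraries (log2 difference -1.29 to -0.96 over all 8 omissions, adjusted p 0.0377 to 0.154). It also ended with a score of sex-linked transcripts in the model (-0.75, adjusted p 0.547).

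**Figure D2:**
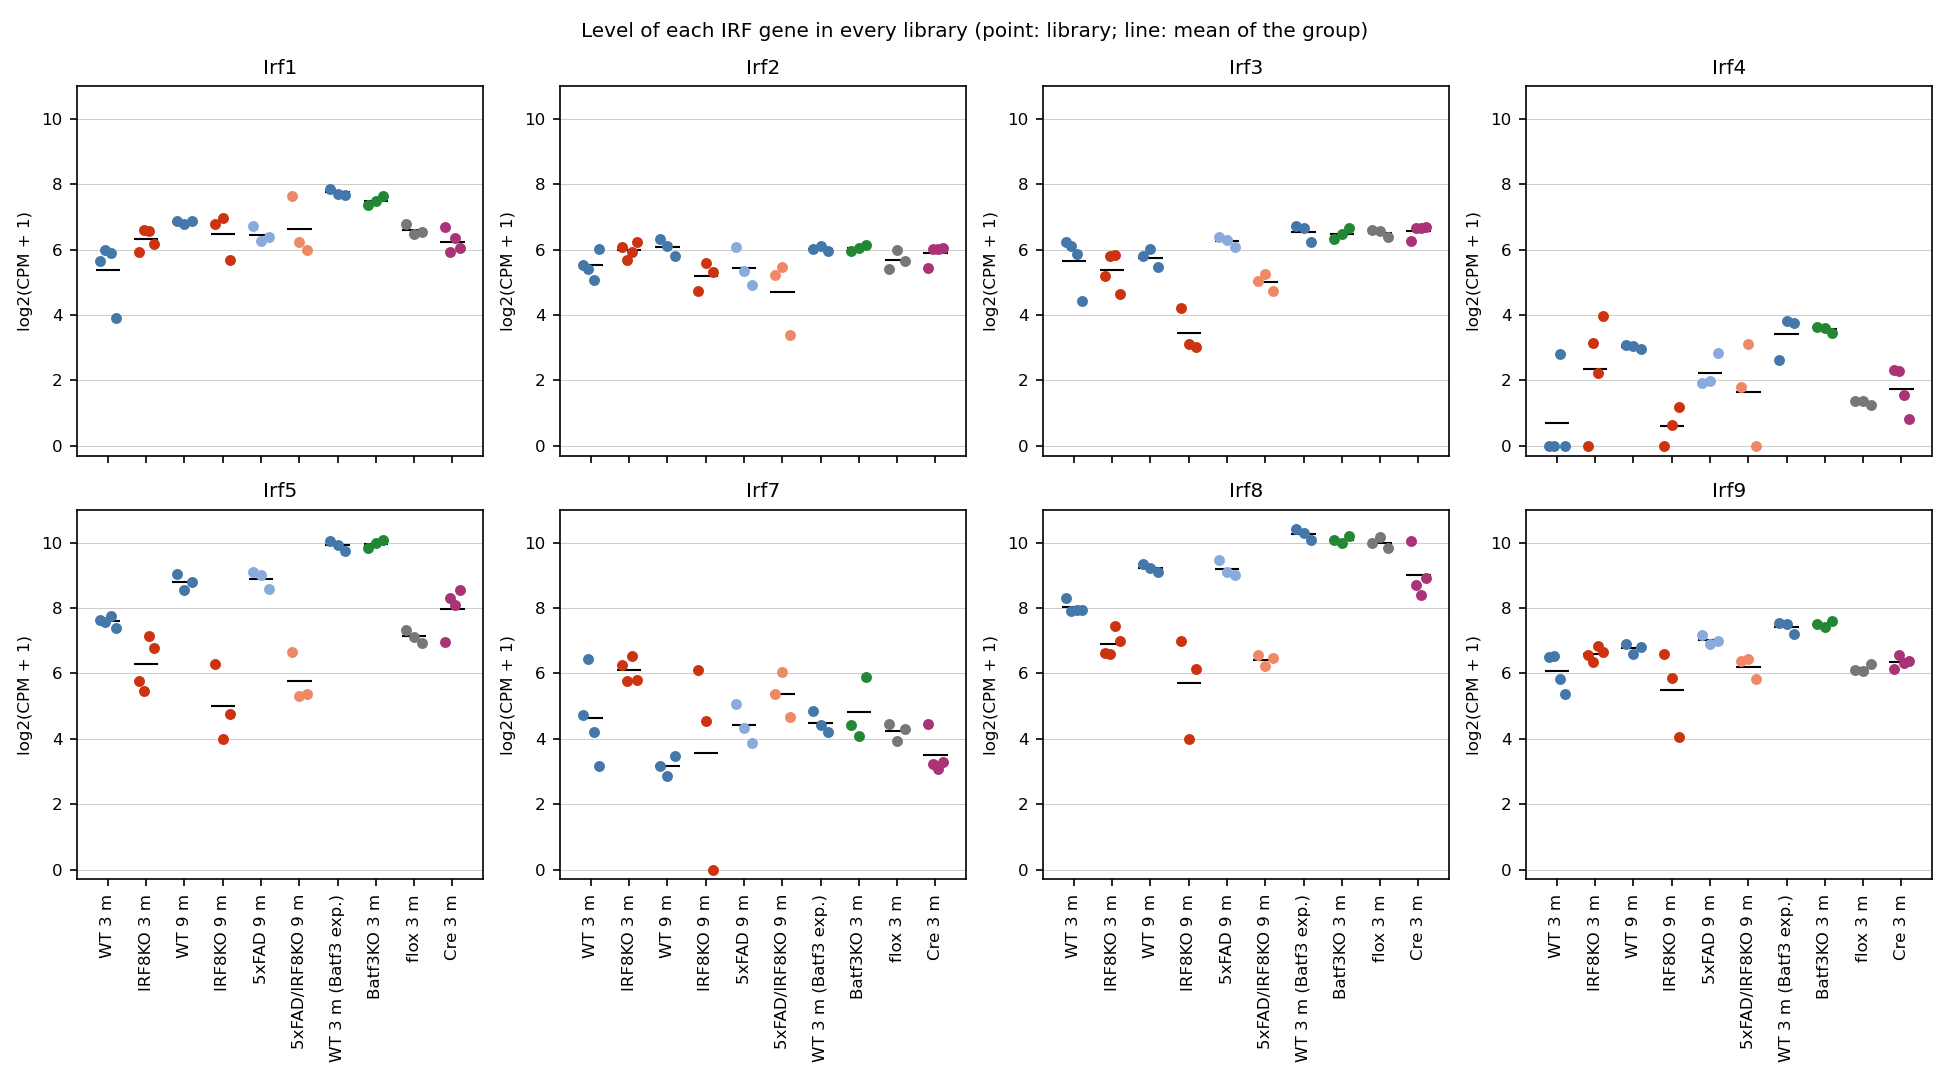
Level of each of the 8 IRF genes as log2(CPM + 1) on the vertical axis, with 1 panel per gene, 1 point per library and a line at the mean of the log2 values of each of the 10 groups. The IRF8KO points lie below the WT points of the same age in the panels of Irf8 and Irf5, and the library labelled Cre replicate 1 lies with the flox libraries in both.

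Irf5, which acts below Toll-like receptors to induce inflammatory cytokines and interferon, was the relative with the largest called fall. The gene lies on the plus strand of chromosome 6 from 29526625 to 29541871, and 14.15% of its exon bases are shared with Tnpo3 on the other strand, where reads are not assigned to either gene by the counting used. At 3 months Irf5 was 199, 190, 217 and 165 CPM in WT libraries, against 53.4, 43.2, 141 and 108 CPM in IRF8KO libraries. At the later age it was 523, 377 and 446 CPM in WT libraries, against 76.7, 14.9 and 25.8 CPM in IRF8KO libraries. The groups did not overlap at either age. At 9 months Irf5 was called, at 11-fold less in IRF8KO (log2 difference -3.46, SE 0.564, adjusted p 0.000781). At 3 months it was 2.28-fold less but not called (-1.19, SE 0.376, 95% interval -2 to -0.37, adjusted p 0.073). DESeq2 called it at 3 months (-1.26, adjusted p 0.0155), as did edgeR without a filter on low counts (adjusted p 0.0333) and with all 33 libraries in 1 model (adjusted p 0.0416). These were 3 of 7 other settings, over which the adjusted p reached 0.468. With 1 library left out it was called in 0 of 8 fits (adjusted p 0.0624 to 0.224).

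Irf4, the closest relative of Irf8 and a factor of lymphocytes and dendritic cells, was low, and near the limit of detection in part of the libraries. It lies on the plus strand of chromosome 13 from 30749226 to 30766976. Its level was 0, 0, 5.99 and 0 CPM in WT libraries, against 0, 7.81, 3.69 and 14.6 CPM in IRF8KO libraries at 3 months. The later libraries held 7.48, 7.22 and 6.76 CPM in WT (51, 16 and 6 counts) and 0, 0.547 and 1.28 CPM in IRF8KO. All IRF8KO libraries were below all WT libraries at 9 months, but the difference was not called (log2 -3.47, SE 1.67, adjusted p 0.141), nor was that at 3 months (2.09, SE 1.72, adjusted p 0.51). A count of 0, seen in 6 libraries of the series, allows up to 0.254 to 1.56 CPM there, for counting error only.

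Of the interferon inducers, Irf3, which is normally expressed in most cells at a steady level, was lower at 9 months. The gene lies on the plus strand of chromosome 7 from 44997648 to 45002848. It was 54.3, 63.6 and 42.8 CPM in WT libraries, against 17.7, 7.66 and 7.1 CPM in IRF8KO libraries at 9 months, with no overlap. This 4.76-fold difference was called (log2 -2.25, SE 0.427, adjusted p 0.00218). At 3 months the groups overlapped, at 73.8, 68, 57.1 and 20.4 CPM in WT libraries, against 35.2, 55, 55.9 and 23.9 CPM in IRF8KO libraries, and Irf3 was not called (-0.39, SE 0.439, adjusted p 0.652).

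Irf7, an interferon-induced gene that amplifies the response, had the highest mean of any group in IRF8KO at 3 months. It lies on the minus strand of chromosome 7 from 141262706 to 141266481. At 3 months it was 75, 53.7, 91.7 and 54.8 CPM in IRF8KO libraries, against 25.5, 85.3, 17.5 and 8.01 CPM in WT libraries. The WT library at 85.3 CPM was the exception to an otherwise clear separation. Irf7 was not called (log2 0.98, SE 0.59, adjusted p 0.349), but was called without that library, WT replicate 2 (2.02, adjusted p 0.0307). At 9 months Irf7 was 7.92, 6.32 and 10.1 CPM in WT libraries, against 68.4, 22.4 and 0 CPM in IRF8KO libraries, where the floor of the library with no count was 0.349 CPM. It was not called at 9 months (1.98, SE 1.29, 95% interval -0.83 to 4.78, adjusted p 0.279), but was called without that library, IRF8KO replicate 3 (2.45, adjusted p 0.0177). Both libraries were singled out by their Irf7 level, so these calls are descriptions.

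Irf9, the DNA-binding subunit of that STAT complex, lies on the plus strand of chromosome 14 from 55603571 to 55610030. Its 3-month level was 89.9, 91.5, 56.2 and 40.2 CPM in WT libraries, against 92.8, 80.9, 113 and 100 CPM in IRF8KO libraries. Later the level was 118, 95.6 and 110 CPM in WT libraries, against 94.7, 57.5 and 15.7 CPM in IRF8KO libraries. The groups overlapped at 3 months (log2 difference 0.45, SE 0.335, adjusted p 0.457). At 9 months each IRF8KO library was below each WT library, but Irf9 was not called (-0.88, SE 0.476, adjusted p 0.187), and it was called without IRF8KO replicate 1 (-1.62, adjusted p 0.0251).

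Irf1 and Irf2, the activator and repressor of shared sites, were not called at either age. Irf1 (plus strand of chromosome 11, 53770014 to 53778374) was 49.4, 62.8, 58.7 and 14.1 CPM in WT libraries, against 59.5, 95.8, 92.8 and 71.2 CPM in IRF8KO libraries at 3 months (log2 difference 0.78, SE 0.423, adjusted p 0.297). The level at 9 months was 116, 110 and 117 CPM in WT libraries, against 108, 123 and 50 CPM in IRF8KO libraries, with an adjusted p of 0.751. Irf2 (plus strand of chromosome 8, 46739732 to 46847458) was 45.2, 41.7, 32.8 and 64.3 CPM in WT libraries, against 66.9, 50.3, 59.1 and 73.6 CPM in IRF8KO libraries at 3 months. Its groups overlapped at 3 months (adjusted p 0.509). Its 9-month level was 79.4, 67.7 and 55.2 CPM in WT libraries, against 25.3, 46.9 and 38.4 CPM in IRF8KO libraries, without overlap but not called (-0.81, SE 0.527, adjusted p 0.276).

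Counted over the family, 1 of 8 genes was called at 3 months, Irf8 itself, where 7.39% of all 13121 genes tested were called and 3.24% were called lower. At 9 months 3 of 8 were called, all lower, where 28.3% of 14604 genes were called and 8.68% were called lower. None of the 7 relatives was called higher at either age, by edgeR or DESeq2, and none had an unadjusted p under 0.05 in that direction, while 4.15% of all genes were called higher at 3 months and 19.6% at 9 months. The median log2 difference of all genes was -0.02 at 3 months and 0.25 at 9 months, so the members lower at 9 months stood below a median above 0. With all 33 libraries in 1 model that median was 0.54 at 9 months, and Irf8, Irf5 and Irf3 were called lower in that model too. At 9 months these 3 genes were called in each of 8 other settings and in each of 6 omissions of 1 library.

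**Figure D3:**
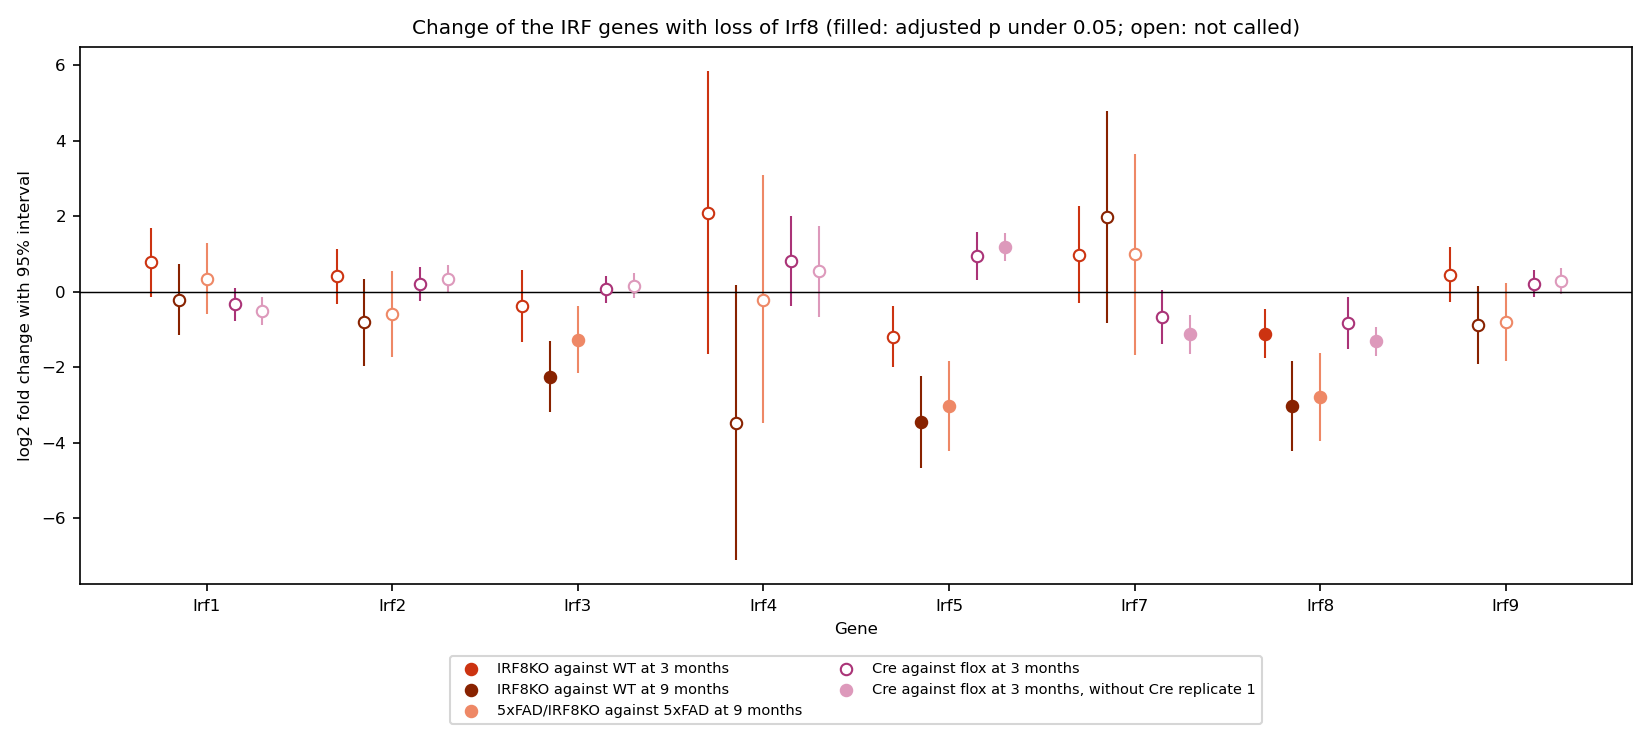
Log2 difference of each of the 8 IRF genes with its 95% interval on the vertical axis. The comparisons are IRF8KO against WT at 3 and 9 months, 5xFAD/IRF8KO against 5xFAD, and Cre against flox with all libraries and without Cre replicate 1. Filled points are called at an adjusted p under 0.05, and Irf5 lies below 0 in the germline knockouts and above 0 in the conditional knockout.

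The knockout effect was compared between ages by a test of the difference of the log2 effects, in which 24% of all genes were called. Irf5 was called, with an effect lower by 2.2 on the log2 scale at 9 months than at 3 months (log2 difference of effects -2.2, SE 0.668, adjusted p 0.0239). The median of all genes in this test was 0.4 with TMM and 0.57 with RLE scaling, and Irf5 was called under both. The call ended without IRF8KO replicate 3 at 3 months (adjusted p 0.0536) and likewise without 9-month WT replicate 1 (0.0786), 9-month WT replicate 3 (0.0589) or 9-month IRF8KO replicate 3 (0.0703). Irf8 (-1.84, SE 0.659, adjusted p 0.0515) and Irf3 (-1.8, SE 0.69, adjusted p 0.0665) missed the threshold. Irf8 was called in 5 of 7 other settings (adjusted p 0.00162 to 0.0675) and in 2 of 14 omissions of 1 library. Irf3 was called in 1 of 7 other settings and in 1 of 14 omissions. The other 5 members were not called, with adjusted p from 0.114 for Irf2 to 0.653 for Irf7. The WT groups of this test also differed in their shares of neutrophil and microglial transcripts, while WT at 3 months in the Batf3KO experiment, which the test does not use, had shares near those of WT at 9 months (microglial 6.68% to 6.9% against 6.37% to 6.53%). Age and experiment cannot be told apart in this difference.

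In 5xFAD mice the same 3 members were called lower without Irf8, where 27.8% of all genes were called and 9.72% were called lower. Irf8 was 704, 549 and 510 CPM in 5xFAD libraries, against 94.1, 73.1 and 87.4 CPM in 5xFAD/IRF8KO libraries. Irf5 was 550, 515 and 379 CPM in 5xFAD libraries, against 98.8, 38.9 and 40.6 CPM in 5xFAD/IRF8KO libraries. Irf3 was 82.5, 77.3 and 66.4 CPM in 5xFAD libraries, against 31.6, 36.7 and 25.7 CPM in 5xFAD/IRF8KO libraries. For each of these 3 genes the groups were fully separated. The falls were 6.92-fold for Irf8 (log2 -2.79, SE 0.539, adjusted p 0.00256), 8.14-fold for Irf5 (-3.03, SE 0.552, adjusted p 0.00176) and 2.41-fold for Irf3 (-1.27, SE 0.411, adjusted p 0.0373). The Irf3 call ended when any 1 of 5 of the 6 libraries was left out (adjusted p 0.0669 to 0.119, log2 difference -1.42 to -1.15), without a filter on low counts (0.14), and with the score of sex-linked transcripts (0.199).

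The remaining members were not called in this comparison. Irf9 was lower in each 5xFAD/IRF8KO library (81.6, 85.4 and 55.8 CPM) than in each 5xFAD library (143, 119 and 126 CPM), with an adjusted p of 0.232. Irf7 was 40.6, 65.1 and 24.2 CPM in 5xFAD/IRF8KO libraries, against 32.5, 19.3 and 13.6 CPM in 5xFAD libraries, which overlap (log2 0.99, SE 1.22, adjusted p 0.598). Irf1 was 199, 74 and 62.5 CPM against 104, 75.8 and 81.9 CPM, and only the first library of 5xFAD/IRF8KO stood above the rest. Irf2 (36.5, 43.4 and 9.41 CPM in 5xFAD/IRF8KO; 66.6, 40 and 29 CPM in 5xFAD) and Irf4 (2.5, 7.64 and 0 CPM; 2.77, 2.93 and 6.08 CPM) overlapped.

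The amyloid transgenes alone were compared in mice with Irf8, where 1.99% of all genes were called. None of the 8 IRF genes was called by edgeR, none had an unadjusted p under 0.05, and DESeq2 called none, with no adjusted p for 1 of them. Irf7 was higher in each 5xFAD library than in each WT library, with means of 21.8 ± 9.73 CPM and 8.13 ± 1.92 CPM (SD, n = 3 each; log2 1.46, SE 1.28, adjusted p 0.878). Fitted on these 6 libraries alone, Irf7 (1.48, adjusted p 0.00109) was called higher, and Irf1 (-0.45, adjusted p 0.0389) and Irf2 (-0.65, adjusted p 0.0194) were called lower. Irf8 was 588 ± 103 CPM in 5xFAD and 598 ± 53.7 CPM in WT (log2 -0.01, 95% interval -1.1 to 1.09).

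In mice without Irf8, Irf3 was higher with the transgenes, at 31.6, 36.7 and 25.7 CPM against 17.7, 7.66 and 7.1 CPM. The groups did not overlap, but Irf3 was not called (log2 1.49, SE 0.416, 95% interval 0.59 to 2.4, adjusted p 0.162). Here 0.164% of all genes were called, none of the 8 members was called by edgeR, and Irf3 was the 1 member with an unadjusted p under 0.05. DESeq2 called Irf3 (1.42, adjusted p 0.00797), as did the model of all 33 libraries (adjusted p 0.014) and edgeR without IRF8KO replicate 1 (2.04, adjusted p 0.0375). The interaction, which asks whether the effect of Irf8 loss differed with the transgenes, called 0.438% of genes and none of the 8 members. Their adjusted p ranged from 0.489 to 1, none had an unadjusted p under 0.05, and DESeq2 called none.

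In the conditional knockout Irf5 differed in the opposite direction to the germline knockout. Irf8 was 1020, 1140 and 905 CPM in flox and 1050, 412, 337 and 485 CPM in Cre. Irf5 was 161, 138 and 121 CPM in flox and 124, 314, 272 and 374 CPM in Cre. The library labelled Cre replicate 1, first in each series, lay within the flox range for both genes, and the other 3 Cre libraries lay below it for Irf8 and above it for Irf5. With all 4 Cre libraries edgeR called 0% of genes and none of the 8 members, although 1407 genes and 2 members, Irf5 (log2 0.95, SE 0.296, adjusted p 0.303) and Irf8 (-0.84, SE 0.319, adjusted p 0.421), had an unadjusted p under 0.05. DESeq2 called no member, and edgeR without a filter on low counts called both (adjusted p 0.000345 and 0.00247).

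Without the library labelled Cre replicate 1, 6.24% of 15264 genes were called, and 3 of the 8 members. Irf5 was called higher in Cre, by 2.28-fold (log2 1.19, SE 0.179, adjusted p 0.000122). Irf8 was called lower, by 2.49-fold (-1.32, SE 0.186, adjusted p 5.81e-05), which is circular because that library was singled out by its Irf8. The same library lay within the flox range for Irf5 and Irf7 too, so all calls made without it are descriptions. Irf7 was called lower, by 2.19-fold (-1.13, SE 0.241, adjusted p 0.00449). It was 21, 14.2 and 18.8 CPM in flox, 20.8 CPM in Cre replicate 1 and 8.29, 7.5 and 8.83 CPM in the other Cre libraries. Irf1 was 110, 88.6 and 92.1 CPM in flox and 102, 59.1, 80.4 and 64.5 CPM in Cre, and missed the threshold without replicate 1 (-0.51, SE 0.175, adjusted p 0.105). Border macrophage markers summed to 53.2, 79.3 and 67.4 CPM in flox, 174 CPM in Cre replicate 1 and 3.95, 5.35 and 2.15 CPM in the other Cre libraries, and their part in these differences was not tested.

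The members with little contrast between flox and Cre were Irf2, Irf3, Irf9 and Irf4. Irf3 was 96.1, 94.2 and 82.4 CPM in flox and 75, 100, 101 and 103 CPM in Cre. Irf9 was 68.2, 65.9 and 76.4 CPM in flox and 69.6, 94.3, 78.5 and 82.2 CPM in Cre. Irf2 was 41.5, 62.7 and 49.4 CPM in flox and 42.7, 64.1, 63.8 and 65 CPM in Cre. Irf4 was 1.56, 1.58 and 1.35 CPM in flox and 4, 3.85, 1.93 and 0.76 CPM in Cre. None of these 4 genes was called with or without replicate 1, and the 95% interval of the log2 difference without it was -0.18 to 0.48 for Irf3 and -0.07 to 0.62 for Irf9.

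The conditional and germline effects at 3 months were set against each other by a test of the difference of log2 effects, in which 7.04% of genes were called. Irf5 was called, with an effect higher by 2.23 in the conditional knockout (log2 difference of effects 2.23, SE 0.523, 95% interval 1.13 to 3.33, adjusted p 0.0161). Without Cre replicate 1 it was 2.47 (SE 0.47, adjusted p 0.00426), among 6.63% of genes called. The call ended without flox replicate 2 (adjusted p 0.0531) or 3 (0.0597). The other 7 members were not called, with a difference of 0.35 for Irf8 (adjusted p 0.714) and -1.56 for Irf7 (adjusted p 0.237). The experiment and the kind of knockout cannot be told apart here, since each effect comes from its own experiment.

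The flox libraries differed from the WT groups in how Irf5 stood to Irf8. With an Irf8 level of 905 to 1140 CPM, they had 121 to 161 CPM of Irf5, below every WT library of the IRF8KO experiment at 3 months (165 to 217 CPM), where Irf8 was 241 to 313 CPM. WT of the Batf3KO experiment had 1080 to 1360 CPM of Irf8 with 864 to 1060 CPM of Irf5. Over the 33 libraries, Pearson's r between log2(CPM + 1) of Irf5 and Irf8 was 0.85. After the group means were removed it was 0.45, and it was 0.69 without the library labelled Cre replicate 1. These correlations are descriptions, over libraries that share experiments and cell content.

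**Figure D4:**
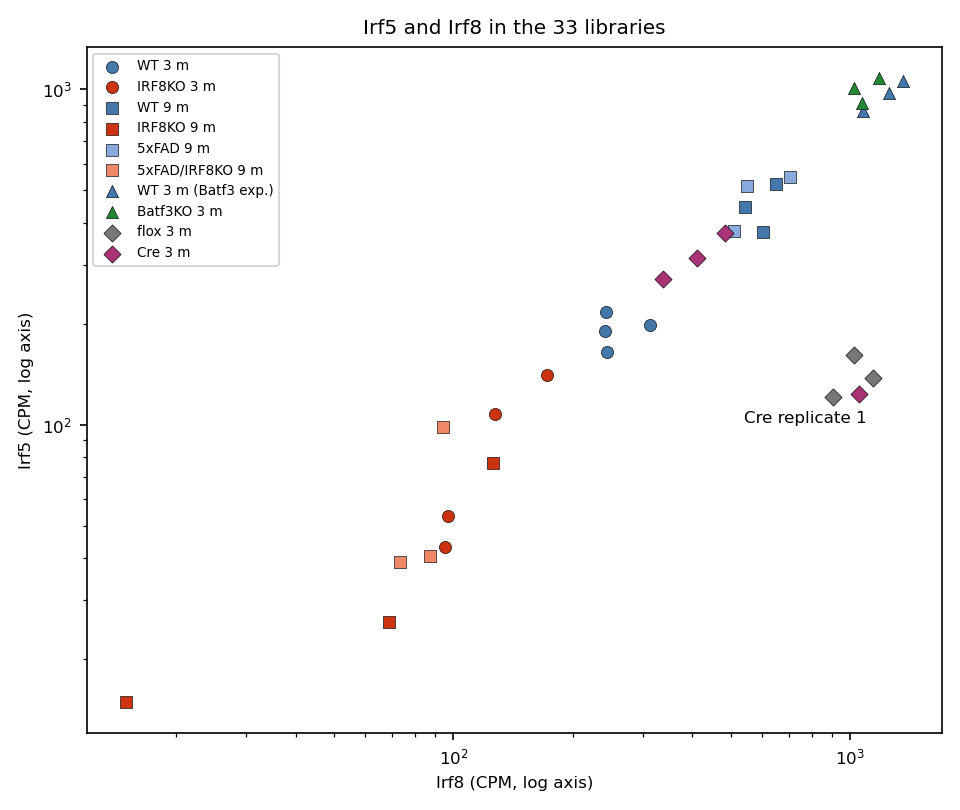
Irf5 level against Irf8 level in CPM on log axes, with 1 point for each of the 33 libraries coloured by group. Most groups lie along 1 diagonal, while the 3 flox libraries and the library labelled Cre replicate 1 lie below it, with 121 to 161 CPM of Irf5 at 905 to 1140 CPM of Irf8.

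Loss of Batf3 left the family with no called member. In that comparison 3.83% of genes were called, none of the 8 members had an unadjusted p under 0.05 with edgeR, and DESeq2 called none. Irf8 was 1360, 1250 and 1080 CPM in WT libraries, against 1070, 1020 and 1180 CPM in Batf3KO libraries, a log2 difference of -0.08 with a 95% interval of -0.24 to 0.08. Irf5 was 1060, 979 and 864 CPM in WT libraries, against 910, 1010 and 1080 CPM in Batf3KO libraries. Both genes overlapped between the groups. Irf1 was lower in each Batf3KO library (162, 177 and 197 CPM) than in each WT library (230, 208 and 203 CPM), at an adjusted p of 0.326. Irf7 was 27.7, 20.3 and 17.5 CPM in WT libraries, against 20.6, 16 and 58.6 CPM in Batf3KO libraries, where only replicate 3 stood apart. Irf9 (184, 180 and 148 CPM in WT; 180, 169 and 192 CPM in Batf3KO), Irf2 (63.2, 68.4 and 61.5; 60.8, 64.7 and 69.7), Irf3 (105, 99 and 73.6; 78.6, 87.4 and 101) and Irf4 (5.21, 13.2 and 12.5; 11.3, 11.1 and 9.9) overlapped as well.

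Ordered by mean level, Irf8 ran from WT of the Batf3KO experiment (1230 ± 141 CPM), Batf3KO (1090 ± 81.2) and flox (1020 ± 120) down to 5xFAD/IRF8KO (84.9 ± 10.7) and IRF8KO at 9 months (70.1 ± 55.8). The first 3 groups overlapped one another and lay above WT at 9 months (598 ± 53.7) and 5xFAD (588 ± 103). Cre (571 ± 325) lay below them too, except its replicate 1, which was in the range of Batf3KO and flox. WT at 3 months in the IRF8KO experiment was at 260 ± 35.5 CPM and IRF8KO at 123 ± 35.8 CPM, with no overlap. For Irf5 the order was Batf3KO (999 ± 84.8) and its WT (966 ± 96.7), then 5xFAD (481 ± 90.4) and WT at 9 months (449 ± 73.4), then the rest, with IRF8KO at 9 months lowest (39.1 ± 32.9). Irf9 had the same top group, Batf3KO at 180 ± 11.3 CPM, and the same lowest, IRF8KO at 9 months at 56 ± 39.5 CPM. Irf3 was highest in Cre (94.5 ± 13.1) and lowest in IRF8KO at 9 months (10.8 ± 5.94), which no other group overlapped. Irf1 was highest in WT of the Batf3KO experiment (214 ± 14.5) and lowest in WT at 3 months of the IRF8KO experiment (46.2 ± 22.2). Irf2 spanned the narrowest range of means by ratio, with neighbours overlapping throughout, from 67.4 ± 12.1 in WT at 9 months to 29.8 ± 18 in 5xFAD/IRF8KO. Irf7 was highest in IRF8KO at 3 months (68.8 ± 18.1) and lowest in WT at 9 months (8.13 ± 1.92), and neighbours in its order also overlapped. Each ± is an SD over 3 or 4 libraries.

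Among the members themselves, Irf7 and Irf9 varied most closely within groups. Their r was 0.47 over the 33 libraries and 0.89 after the group means were removed, and between 0.8 and 0.92 when any 1 library was left out. Irf3 and Irf8 showed the reverse, with 0.82 over all libraries and 0.25 within groups.

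By Pearson's r of log2(CPM + 1) over the 33 libraries, among 11069 genes whose mean was 5 CPM or more, the genes most like Irf8 were Olfml3 (r = 0.967), Tbxas1 (0.963) and Tmem204 (0.949). Olfml3 is a microglial marker. Those most like Irf5 were Evl (0.977), Pld4 (0.965), an exonuclease of phagocytes, and Kcnd1 (0.958). Those most like Irf3 were Snx20 (0.936), Idh2 (0.934) and Brms1 (0.914). For Irf9 the 3 nearest were 2410002F23Rik (0.921), Alg9 (0.901) and Txndc5 (0.9), and for Irf1 Rhoa (0.882), Tnfrsf1a (0.881) and Scarb1 (0.872). The nearest genes were less close for Irf7, namely Relt (0.815), Abtb1 (0.782) and Haus8 (0.769), and for Irf2, namely Ralgps2 (0.812), Sh2b3 (0.794) and Nhlrc2 (0.778). Irf4 was under the minimum level for this comparison. These libraries share depth and cell content, so the likeness is a description.

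The partners and activators of IRFs, a list of 18 genes, had calls in both directions in germline knockouts, at 9 months in about the same share as all genes. At 3 months 2 were called higher and 2 lower (median log2 difference 0.19), at 9 months 1 higher and 4 lower (median -1.52), and in 5xFAD/IRF8KO against 5xFAD 1 higher and 4 lower (median -0.7), where the median of all genes was 0.24. Of all genes, 7.39%, 28.3% and 27.8% were called in these 3 comparisons, and 5 of 18 at 9 months, with or without the transgenes, is at that share. Spi1, the gene of the IRF8 partner PU.1, was not called in any comparison, with log2 differences of 0, -0.38 and -0.17 in these 3. Batf3 was 66, 28.4, 19.2 and 22.4 CPM in WT libraries, against 1.85, 0, 1.15 and 0.328 CPM in IRF8KO libraries at 3 months (-5.33, SE 0.892, adjusted p 0.00543). At 9 months it had no count in any of the 6 libraries without Irf8, which is at least 156-fold lower than in WT and at least 303-fold lower than in 5xFAD, against a floor of 3 counts over the group. In Batf3KO Batf3 was 0.575, 0.482 and 0.575 CPM against 29, 32.3 and 26.7 CPM in WT.

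Tmem173, the gene of the DNA-sensing adaptor STING that activates IRF3, fell in all 3 germline comparisons. It was 739, 415, 394 and 186 CPM in WT libraries, against 65.4, 104, 109 and 89.9 CPM in IRF8KO libraries at 3 months. The log2 differences were -2.26 (adjusted p 0.00827) at 3 months, -3.64 (8.5e-06) at 9 months and -3.94 (5.34e-06) in 5xFAD/IRF8KO. Ikbke, a kinase that phosphorylates IRF3 and IRF7, rose in all 3. It was 0, 0.8, 0 and 0 CPM in WT libraries, against 26.6, 24.9, 6.23 and 25.3 CPM in IRF8KO libraries at 3 months (6.37, SE 1.25, adjusted p 0.0113). At 9 months its means were 0.0978 CPM in WT, from few counts, and 18.8 CPM in IRF8KO (adjusted p 0.00471). Ticam1, the gene of the Toll-like receptor adaptor TRIF, had no count in 5xFAD/IRF8KO, at least 376-fold lower than in 5xFAD. In IRF8KO at 9 months Ticam1 was 0, 0 and 21.8 CPM, against 20.5, 23.9 and 18 CPM in WT. At 3 months the groups overlapped, at 4 to 6.23 CPM in IRF8KO and 0 to 21.8 CPM in WT. Irf2bp2, an IRF2-binding corepressor, was called higher at 3 months (1.28, adjusted p 0.0404) and lower at 9 months (-1.71, adjusted p 0.0018).

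Of 11 interferon receptor and JAK-STAT genes, 1 was called higher and 0 lower at 3 months (median log2 difference 0.8), and 0 higher and 2 lower at 9 months (median -0.83). These counts are near the 7.39% of all genes called at 3 months and below the 28.3% called at 9 months. In the test of the difference of effects between ages, 0 were called higher and 4 lower, where 24% of all genes were called and 5.92% were called lower. Ifnar1, a subunit of the type I interferon receptor, was 20.8, 16.9, 35.5 and 19.2 CPM in WT libraries, against 89.3, 79.4, 157 and 92 CPM in IRF8KO libraries at 3 months (2.16, SE 0.358, adjusted p 0.00517). Stat2, a partner of IRF9, was called in none of the 3 germline comparisons (1.53, adjusted p 0.0857, at 3 months). At 9 months the interferon gamma receptor gene Ifngr1 was 713, 360 and 434 CPM in IRF8KO libraries, against 1940, 1830 and 1300 CPM in WT libraries (-1.69, SE 0.296, adjusted p 0.00128), and Ifnar2 was lower too (-1.47, adjusted p 0.000948). In 5xFAD/IRF8KO 1 was called higher and 3 lower, where 27.8% of all genes were called and 9.72% were called lower. Jak1 was at 1.53 (adjusted p 0.0171), Ifngr1 at -1.56 (adjusted p 0.00225) and Ifngr2 at -1.3 (adjusted p 0.00891).

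Of 22 interferon-stimulated targets, 2 were called higher and 0 lower at 3 months (median log2 difference 0.4). At 9 months 5 of 21 tested were called higher and 1 lower (median 0.82), and in 5xFAD/IRF8KO 4 of 21 higher and 3 lower (median 0.4). Against 7.39%, 28.3% and 27.8% of all genes called, these counts are near the background, and the genes below are described singly. The medians of the 3 pathway lists at these ages were the same to 2 decimals with each gene that had no count in a group set at its bound from 3 counts over that group. Cmpk2, a mitochondrial nucleotide kinase, rose in all 3 comparisons, by 2.64, 5.38 and 5.78 on the log2 scale (adjusted p 0.011, 4.32e-05 and 2.34e-05). Its neighbour in the antiviral programme, Rsad2 (viperin), was 53.5, 1100 and 275 CPM in IRF8KO libraries, against 1.91, 0 and 2.25 CPM in WT libraries at 9 months (8.48, SE 1.21, adjusted p 0.000303). The helicase gene Ddx58 (RIG-I) was called higher at 3 months (2.37, adjusted p 0.0274) and in 5xFAD/IRF8KO (2.13, adjusted p 0.00341). At 9 months the GTPase gene Mx1 went the other way, with no count in the 6 libraries without Irf8. This was at least 24.6-fold lower than in WT and at least 70.7-fold lower than in 5xFAD. Its level was low with Irf8 too, at 3.08, 2.71 and 3.38 CPM in WT, the last from 3 counts. In 5xFAD it was 6.75, 4.13 and 6.08 CPM. At 3 months Mx1 overlapped, at 0, 3.4, 6.55 and 0 CPM in WT libraries, against 1.68, 0, 4.85 and 3.12 CPM in IRF8KO libraries. Ifit2 was lower in 5xFAD/IRF8KO, with a mean of 0.113 CPM against 13.3 CPM in 5xFAD (adjusted p 0.021). Transcripts of neutrophils, monocytes, red blood cells, oligodendrocytes and border macrophages moved with these differences at 9 months, with the values given above, and their part in them was not tested.

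**Figure D5:**
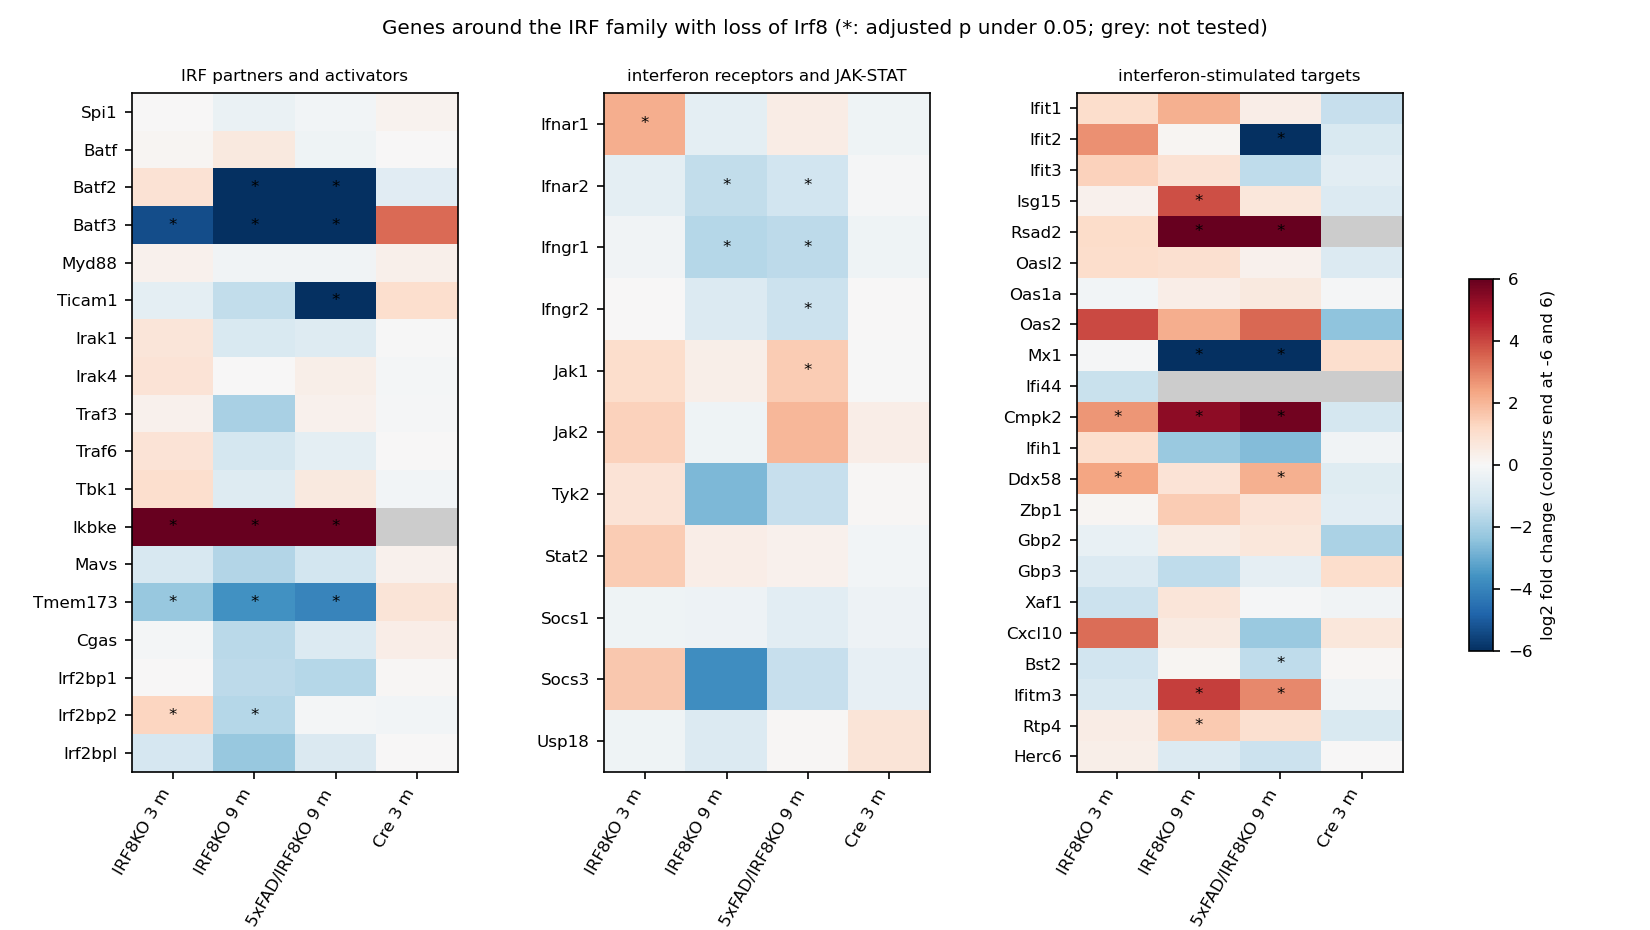
Log2 difference, as colour, of each gene of the 3 lists (IRF partners and activators, interferon receptors and JAK-STAT, interferon-stimulated targets) in 4 comparisons, with an asterisk where called, grey where not tested and colours ending at 6 on either side of 0. Ikbke and Cmpk2 are higher and Tmem173 is lower in all 3 germline comparisons, while the column of Cre against flox with all 4 Cre libraries holds no asterisk.

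In the conditional knockout with all 4 Cre libraries, edgeR called 0 genes of the 3 lists, while 3 partners, 1 receptor or JAK-STAT gene and 5 targets had an unadjusted p under 0.05 and DESeq2 called 1 target. Without Cre replicate 1, 3 of 17 partners were called higher and 0 lower, and 7 of 19 targets were called lower and 0 higher, where 3.74% of all genes were called higher and 2.5% lower. Batf3, which fell in the germline knockout, was 4.01, 4.21 and 1.79 CPM in flox, 1.22 CPM in Cre replicate 1 and 32.2, 62.1 and 44.3 CPM in the other Cre libraries (log2 3.78 without replicate 1, SE 0.305, adjusted p 3.72e-08). Tmem173 was 499, 524 and 486 CPM in flox and 438, 1060, 804 and 1130 CPM in Cre (0.99 without replicate 1, adjusted p 0.000993). Ticam1 was the third partner called (1.27, adjusted p 0.00938). Of the targets, Rtp4, an interferon-induced chaperone gene, was 203, 170 and 194 CPM in flox and 218, 68.7, 62.6 and 50.6 CPM in Cre (-1.64, adjusted p 1.88e-06). Oas2 (-4.2) and Gbp2 (-2.81) had the largest falls among the called targets, with Isg15 at -1.08 and Oasl2 at -1.51. For each gene named here the level in Cre replicate 1 was nearer to that of the flox libraries than to that of the other 3 Cre libraries. The calls made without that library are therefore descriptions.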

How the data were processed

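The authors deposited 33 files, 1 per library, of raw read counts for each gene, without normalization. Per the submitters' processing notes, bcl2fastq, STAR 2.5.2b, Picard 2.17.11, Subread, featureCounts and mm10 were used, with no role given for each. Per the labels' protocols, RNA was amplified with SMART-Seq v4 and carried no molecular identifiers, so floors of 3 counts cover counting error only. Each SE was derived from the log2 difference and the F statistic of edgeR's test. The 95% intervals use that SE with a t distribution and include the spread between libraries. The column that ignores strand was used, so reads of overlapping antisense genes cannot be told apart. Reads in genes made up 47.3% to 78.6% of a library, and summary lines stayed out of library sizes. Of 54146 gene identifiers, 54079 matched GENCODE M21 (GRCm38) ignoring version and 67 did not. Promoters of all 8 genes came from the RefSeq table.

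Genes were tested with edgeR 4.0.16 in R 4.3.3 (filterByExpr, TMM, quasi-likelihood, Benjamini-Hochberg adjusted p under 0.05). The 12 libraries aged 9 months shared 1 model, and other comparisons used their own groups. Levels use TMM factors over all 33 libraries, so ratios of levels differ slightly from the fitted fold changes. The labels say that microglia came from each brain but do not name animals, so p-values measure the spread between these samples. Replicate numbers did not pair the libraries. No 2 libraries were copies. Alternatives were RLE scaling, no filter, DESeq2 1.42.0, summed strand columns, a replicate block, a sex score, only the groups compared, all libraries in 1 model, and each library left out. The script was tested on simulated counts with 200 changed genes.

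The members, the 3 pathway lists and the 12 marker lists were chosen with earlier results of these data known. All 8 members were named in each comparison. From each list, the called genes that rose most (up to 2) and fell most (up to 2), with at least 5 CPM in the higher group, were named per comparison of germline Irf8 loss, besides Spi1, Batf3 and Stat2. 1 gene of the receptor and JAK-STAT list is not reported here and was left out of its counts and medians. The genes named for Cre against flox without Cre replicate 1, and further called genes of the lists, were chosen after their values were seen.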

Additional observations from a re-analysis of the deposited data

Results flagged for a closer look

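Among 24 groups of 4 libraries (a gene in a group), 5 held a library whose gap to the nearest other library took up more of the group's range than Dixon's 95% limit, a rule that chance meets in about 1 in 20 groups. The library labelled Cre replicate 1 was set apart for Irf2 (42.7 CPM), Irf3 (75 CPM) and Irf7 (20.8 CPM). In WT at 3 months of the IRF8KO experiment, replicate 3 was set apart for Irf4 (5.99 CPM, with 0 in the others) and replicate 1 for Irf8 (313 CPM).

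The Irf5 difference between knockout and control libraries itself differed between experiments, by a test of the difference of log2 effects. The IRF8KO effect on Irf5 was lower at 9 months than at 3 months (log2 difference of effects -2.2). That difference was called in 10 of 14 fits that left out a single library. The effect in the conditional knockout was higher than that in IRF8KO at 3 months (2.23), called in 13 of 15 such fits. Age or kind of knockout cannot be told apart from experiment in these tests, and the part of cell content was not tested.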

How the results depend on the processing

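Over the log2 differences of single genes, settings other than leaving out 1 library gave 533 values with the same direction and call. Another 20 were newly past the threshold, 5 no longer past it and 9 reversed. Leaving out 1 library gave 628, 14, 17 and 29. Without TMM scaling, 58 mean levels of a gene in a group stayed within the SD of that group and 22 did not. The cause of a change was not tested unless stated.

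The number of the 8 members called in IRF8KO against WT at 3 months was 1, and became 2 with no filter, DESeq2 or all 33 libraries in 1 model, 0 with the sex score and 0 to 1 with 1 library left out. For the difference between ages it was 1, and became 2 with no filter, DESeq2 or the sex score, 5 with all 33 libraries and 0 to 4 with 1 library left out. For 5xFAD against WT it went from 0 to 3 when only these groups were fitted. For 5xFAD/IRF8KO against IRF8KO it went from 0 to 1 with DESeq2 or all 33 libraries, and was 0 to 1 with 1 library left out. For Cre against flox it went from 0 to 2 with no filter and was 0 to 3 with 1 library left out. For Batf3KO it went from 0 to 1 with no filter. Conditional minus germline effect had 1, or 0 to 2 with 1 library left out. IRF8KO against WT at 9 months had 3 to 4 and 5xFAD/IRF8KO against 5xFAD 2 to 3 with 1 library left out.

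The replicate block, although the numbers did not pair the libraries (correlations of same-numbered deviations from -0.15 to 0.159, not all above 0.1 in any comparison), gave 0 members in IRF8KO against WT at 3 months, 2 for the difference between ages and 0 for conditional minus germline effect. With the block, Irf7 in the difference between ages was -0.59.

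With the sex score, reversed log2 values were Irf3 0.43 and Irf4 -6.07 in IRF8KO against WT at 3 months, Irf4 0.2 and Irf5 -0.98 in 5xFAD against WT, Irf7 0.34 in the interaction and Irf7 -0.9 in the difference between ages. With all 33 libraries they were Irf8 0.07 in 5xFAD against WT and Irf3 -0.01 in Batf3KO. None of these was called. With 1 library left out, the ranges that crossed 0, none of them called, were as follows. In 5xFAD/IRF8KO against 5xFAD, Irf1 ran from -0.35 to 0.62 and Irf4 from -1.66 to 0.38. In 5xFAD against WT, Irf8 ran from -0.13 to 0.05. In 5xFAD/IRF8KO against IRF8KO, Irf1 ran from -0.48 to 0.49, Irf2 from -0.74 to 0.08, Irf7 from -0.11 to 1.91, Irf8 from -0.25 to 0.97 and Irf9 from -0.08 to 0.98. In the interaction, Irf1 ran from -0.12 to 0.86, Irf2 from -0.19 to 0.63, Irf5 from -0.13 to 1.41, Irf7 from -1.53 to 0.49, Irf8 from -0.2 to 1.02 and Irf9 from -0.33 to 0.74. In Cre against flox, Irf3 ran from -0.01 to 0.15. In Batf3KO, Irf3 ran from -0.06 to 0.12, Irf4 from -0.18 to 0.36 and Irf7 from -0.13 to 0.94. In the difference between ages, Irf7 ran from -0.4 to 1.71. In conditional minus germline effect, Irf2 ran from -0.33 to 0.04, Irf8 from -0.11 to 0.54 and Irf9 from -0.31 to 0.04. RLE scaling moved the median of all genes by 0.17 in the difference between ages and by at most 0.07 elsewhere. Levels of Irf4 rest on few counts in many libraries, which limits what the shallowest libraries can show.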
